A study of Mus musculus with 2 samples.

Results

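The loci described here belong to 5 transcription factors of T helper 2 (Th2) cells: Maf, Irf4, Nfil3, Batf and Stat6. Each gene was taken as a fixed window of mouse genome build mm9, named for the gene. The genes and windows were chosen with earlier results of these data known. The windows lay on chromosome 8 from 118150001 to 118330000 (Maf, 180 kb), chromosome 13 from 30800001 to 30900000 (Irf4, 100 kb) and from 53020001 to 53120000 (Nfil3, 100 kb), chromosome 12 from 86990001 to 87080000 (Batf, 90 kb), and chromosome 10 from 127050001 to 127120000 (Stat6, 70 kb). Together they held 540 bins of 1 kb, of which 529 carried at least 1 read, out of 2246042 covered bins in the genome. Chromatin came from Th2 cells grown from C57BL/6 spleen T cells positive for CD4 and CD62L. Activation through CD3 and CD28 lasted 5 days, in IL-4 at 10 ng/ml with interferon gamma blocked by antibody at 2 µg/ml, and a rest of 3 days followed. One library was precipitated for histone H3 carrying acetyl groups on its lysines (H3KAc), and the other, from the same kind of cell, with non-specific rabbit IgG. The labels do not say how many animals were used or whether their cells were pooled.

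Acetylation of the lysines in the histone H3 tail loosens chromatin and marks active promoters and enhancers. Th2 cells are the helper T cells that secrete IL-4, IL-5 and IL-13. STAT6 is the signal transducer that IL-4 activates at its receptor, and IL-4 needs it to drive Th2 differentiation. IRF4, an interferon regulatory factor, and BATF, a small basic leucine zipper protein of the AP-1 family, bind DNA together at composite sites in activated T cells. c-MAF, a large basic leucine zipper protein, binds the Il4 promoter, and NFIL3 (also called E4BP4) is a basic leucine zipper factor that acts on cytokine genes of helper T cells.

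Every count given here is of distinct read positions, moved 100 bp along their strand, with copies at the same 5′ end and strand counted 1 time. Levels are in reads per 1000000 distinct positions (RPM). The H3KAc library held 19711169 positions and the IgG library 1897666, so that 1 position was worth 0.0507 RPM in H3KAc and 0.527 RPM in IgG. Brackets after a level or ratio hold its exact 95% interval, which covers counting error only. With 1 library per antibody there was no replicate check and no p-value was computed. No gene annotation on mm9 was used here, so peaks are placed by position, not as promoter, exon or intron, and the Th2 label was not checked against marker genes.

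By gene order in the RefSeq table of another build (GRCm38.p6, names only), the nearest coding genes are Wwox and Dynlrb2 beside Maf, Dusp22 and Exoc2 beside Irf4, Auh and Ror2 beside Nfil3, and Jdp2 and Flvcr2 beside Batf. Stat6 lies between Lrp1 and Nab2, and Nab2 overlaps it there. Beyond this overlap, which of these neighbours reach into the windows was not determined, so a peak in a window need not belong to the gene that names it. RefSeq promoter sequences (250 bases before to 50 after the start, GRCm38.p6) were found for 4 of the 5 genes, all but Maf. They differed in CG dinucleotides, the sites of DNA methylation that promoters of many broadly expressed genes hold in clusters. The Nfil3 promoter held 54 in 300 bases, and 0.347% of 32851 RefSeq promoters held as many or more. The counts were 11 for Irf4, 9 for Batf and 8 for Stat6, and the median promoter held 7. The members with the most and the fewest are shown because this is where the promoters differ most, with each CG in capitals. The Nfil3 sequence is chr13:52980990-52981289 on the minus strand and the Stat6 sequence is chr10:127642736-127643035 on the plus strand. Both positions are on GRCm38.p6 and cannot be set against the mm9 positions of the windows.
Nfil3: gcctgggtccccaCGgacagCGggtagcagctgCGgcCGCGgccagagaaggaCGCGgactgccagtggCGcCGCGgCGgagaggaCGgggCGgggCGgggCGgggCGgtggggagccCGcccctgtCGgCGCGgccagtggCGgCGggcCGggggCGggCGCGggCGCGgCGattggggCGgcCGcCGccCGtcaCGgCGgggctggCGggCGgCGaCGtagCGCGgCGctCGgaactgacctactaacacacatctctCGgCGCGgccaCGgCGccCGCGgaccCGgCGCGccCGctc
Stat6: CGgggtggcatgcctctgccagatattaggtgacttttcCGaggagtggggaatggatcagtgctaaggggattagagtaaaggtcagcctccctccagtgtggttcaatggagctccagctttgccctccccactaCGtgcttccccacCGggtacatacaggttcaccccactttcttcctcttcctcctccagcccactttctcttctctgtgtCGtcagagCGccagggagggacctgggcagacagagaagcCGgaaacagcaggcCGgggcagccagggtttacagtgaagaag
Searched on both strands, none of these 4 promoters held the STAT palindrome, TTC and GAA with 4 bases between them (in 6.95% of all promoters), the AP-1 site TGANTCA (7.81%), the tandem IRF element, GAAA repeated after 2 bases (3.44%), the MAF half-site TGCTGAC (4.67%) or the NFIL3 site TTACGTAA (0.119%). These letters were not in these 300-base stretches, which says nothing of other stretches.

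All 5 windows lay above IgG as a whole, and Stat6 by the least. Over the 540 kb H3KAc averaged 0.995 RPM per kb (0.976 to 1.01) and IgG 0.599 RPM per kb (0.553 to 0.649), a ratio of 1.66 (1.53 to 1.80). Covered bins outside the windows averaged 0.445 RPM per kb in both libraries. Nearly all positions lie there, so the scaling to RPM makes these 2 averages equal. Over the windows together IgG was thus also higher than elsewhere, but in the Maf window it was lower, at 0.345 RPM per kb (0.286 to 0.414). The part of IgG in the H3KAc levels was not tested.

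The Stat6 window held 1704 H3KAc and 130 IgG positions. That is 1.24 RPM per kb (1.18 to 1.30) in H3KAc and 0.979 RPM per kb (0.818 to 1.16) in IgG, a ratio of 1.26 (1.06 to 1.52). With plus-strand reads alone it was 1.19 (0.928 to 1.56), an interval that includes 1. The Irf4 window held 2263 H3KAc and 127 IgG positions, or 1.15 and 0.669 RPM per kb, with a ratio of 1.72 (1.43 to 2.07). For Batf the counts were 1829 in H3KAc and 103 in IgG, or 1.03 and 0.603 RPM per kb, with a ratio of 1.71 (1.40 to 2.11).  The Maf window held 2089 H3KAc and 118 IgG positions, or 0.589 and 0.345 RPM per kb, with a ratio of 1.70 (1.42 to 2.07). It had the lowest level of the 5 in both libraries, and its ratio differed little from those of Irf4 and Batf. The Nfil3 window had the highest H3KAc level, 1.37 RPM per kb (1.32 to 1.42) from 2704 positions, against 0.717 RPM per kb (0.601 to 0.848) from 136 IgG positions. Its ratio was 1.91 (1.61 to 2.29).

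Set against each other, the ratio of Stat6 was lower than that of each other window: the Nfil3 ratio was 1.52 times (1.17 to 1.96), the Irf4 ratio 1.36 times (1.05 to 1.76), the Batf ratio 1.35 times (1.03 to 1.79) and the Maf ratio 1.35 times (1.04 to 1.76) that of Stat6. The intervals of the other 6 pairs included 1. These intervals are not adjusted for the 10 pairs compared. Stat6 had the highest IgG level of the windows, above 89.8% of 28544 windows of 70 kb tiled over the autosomes and chromosome X.

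In H3KAc level the order was Nfil3, Stat6, Irf4, Batf and Maf. Each neighbouring pair differed beyond counting error within the H3KAc library. Nfil3 had 1.11 times the level of Stat6 (1.05 to 1.18), Stat6 1.08 times that of Irf4 (1.01 to 1.15), Irf4 1.11 times that of Batf (1.05 to 1.18), and Batf 1.75 times that of Maf (1.64 to 1.87). The same pairs in IgG had ratios of 0.732 (0.572 to 0.939), 1.46 (1.14 to 1.88), 1.11 (0.849 to 1.45) and 1.75 (1.33 to 2.29). The largest step in H3KAc, from Batf down to Maf, was thus as large in IgG. Over bins below the 99th percentile alone, Stat6 had 0.968 times the H3KAc level of Irf4 (0.896 to 1.05), so the order of these 2 windows turned, and Nfil3 had 1.07 times that of Irf4 (0.995 to 1.14).

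Among all windows of equal width, the Nfil3 window stood above 98.7% of 19979 windows of 100 kb in H3KAc, against 80.8% in IgG. The Stat6 window stood above 97.4% of 28544 windows of 70 kb in H3KAc. Irf4 was above 96.6% of the 100-kb windows in H3KAc and 78.3% in IgG, and Batf above 94.3% of 22104 windows of 90 kb in H3KAc and 73.8% in IgG. The Maf window was above 72.1% of 11050 windows of 180 kb in H3KAc and 47.5% in IgG. In the Maf window 10 of the 180 bins held no read in either library. Its level was 0.623 RPM per kb over the bins with reads.

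**Figure D1:**
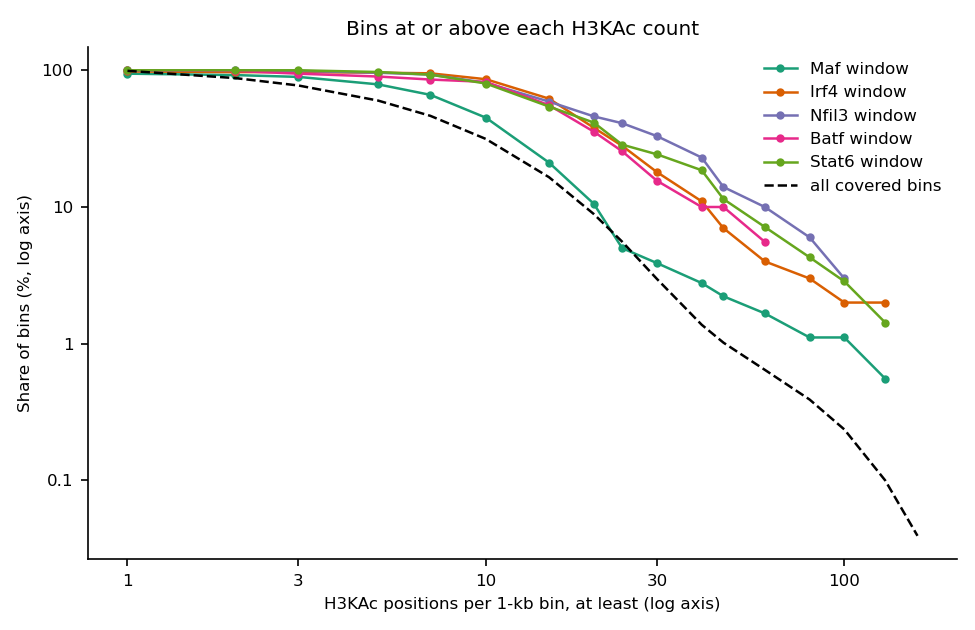
Share of 1-kb bins (y axis, percent, log axis) with at least a given number of H3KAc positions (x axis, log axis) in each of the 5 windows and in all covered bins of the genome. At 46 positions and above, the curves stand at 2.22% for Maf, 7.00% for Irf4, 14.0% for Nfil3, 10.0% for Batf and 11.4% for Stat6, and at 1.02% for all covered bins.

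Part of the H3KAc within the windows lay in dense islands. A bin was called high when its H3KAc count reached the 99th percentile of covered bins, which was 46 positions, and high bins separated by no more than 1 bin counted as the same island. IgG did not enter this choice. H3KAc did, so a higher share of H3KAc and a higher ratio to IgG in islands than outside are in part set by it. In the windows 42 of 529 covered bins were high (7.94%), against 1.02% of all covered bins. At the 95th percentile it was 121 bins (22.9%, against 5.57% of all covered bins), and among the 0.1% highest bins it was 4 (0.756%). The 42 high bins formed 17 islands covering 45 kb. Just inside this limit lay an Nfil3 bin with 46 positions (53081001), and just outside it lay bins of 45 positions in the Irf4 window (30851001) and the Nfil3 window (53065001 and 53067001). The islands held 31.2% of the windows' H3KAc positions and 14.0% of their IgG positions on 8.33% of their length.

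Over all 17 islands H3KAc averaged 3.73 RPM per kb (3.60 to 3.86) and IgG 1.01 RPM per kb (0.806 to 1.24), which gave 3.70 (2.99 to 4.64) as their ratio. Outside the islands the levels were 0.746 RPM per kb in H3KAc and 0.562 in IgG, a ratio of 1.33 (1.22 to 1.45). When islands were called on plus-strand reads and measured on minus-strand reads, the ratio was 3.54 (2.60 to 4.96), and 3.70 (2.67 to 5.28) the other way round. Both strands came from 1 library and the same precipitated regions, so this split is not an independent check of the ratio.

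High bins of the 5 windows were compared with high bins of the rest of the genome. The 42 bins had a median of 65 H3KAc positions and a ratio to IgG of 3.71 (2.99 to 4.67). The 22827 high bins elsewhere had a median of 69 positions and a ratio of 1.93 (1.91 to 1.94). Without bins elsewhere that held more than 9 IgG positions, the most in any bin of the windows, that ratio was 2.47 (2.46 to 2.49). It lay below the interval of the windows. The bins kept elsewhere averaged 1.62 RPM per kb in IgG and 4.01 in H3KAc, so their IgG was not matched to that of the windows. No IgG position was found in 26.2% of the windows' high bins, against 11.5% of high bins elsewhere. IgG averaged 1.04 RPM per kb in the high bins of the windows and 2.13 RPM per kb elsewhere, while H3KAc averaged 3.87 and 4.11 RPM per kb.

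**Figure D2:**
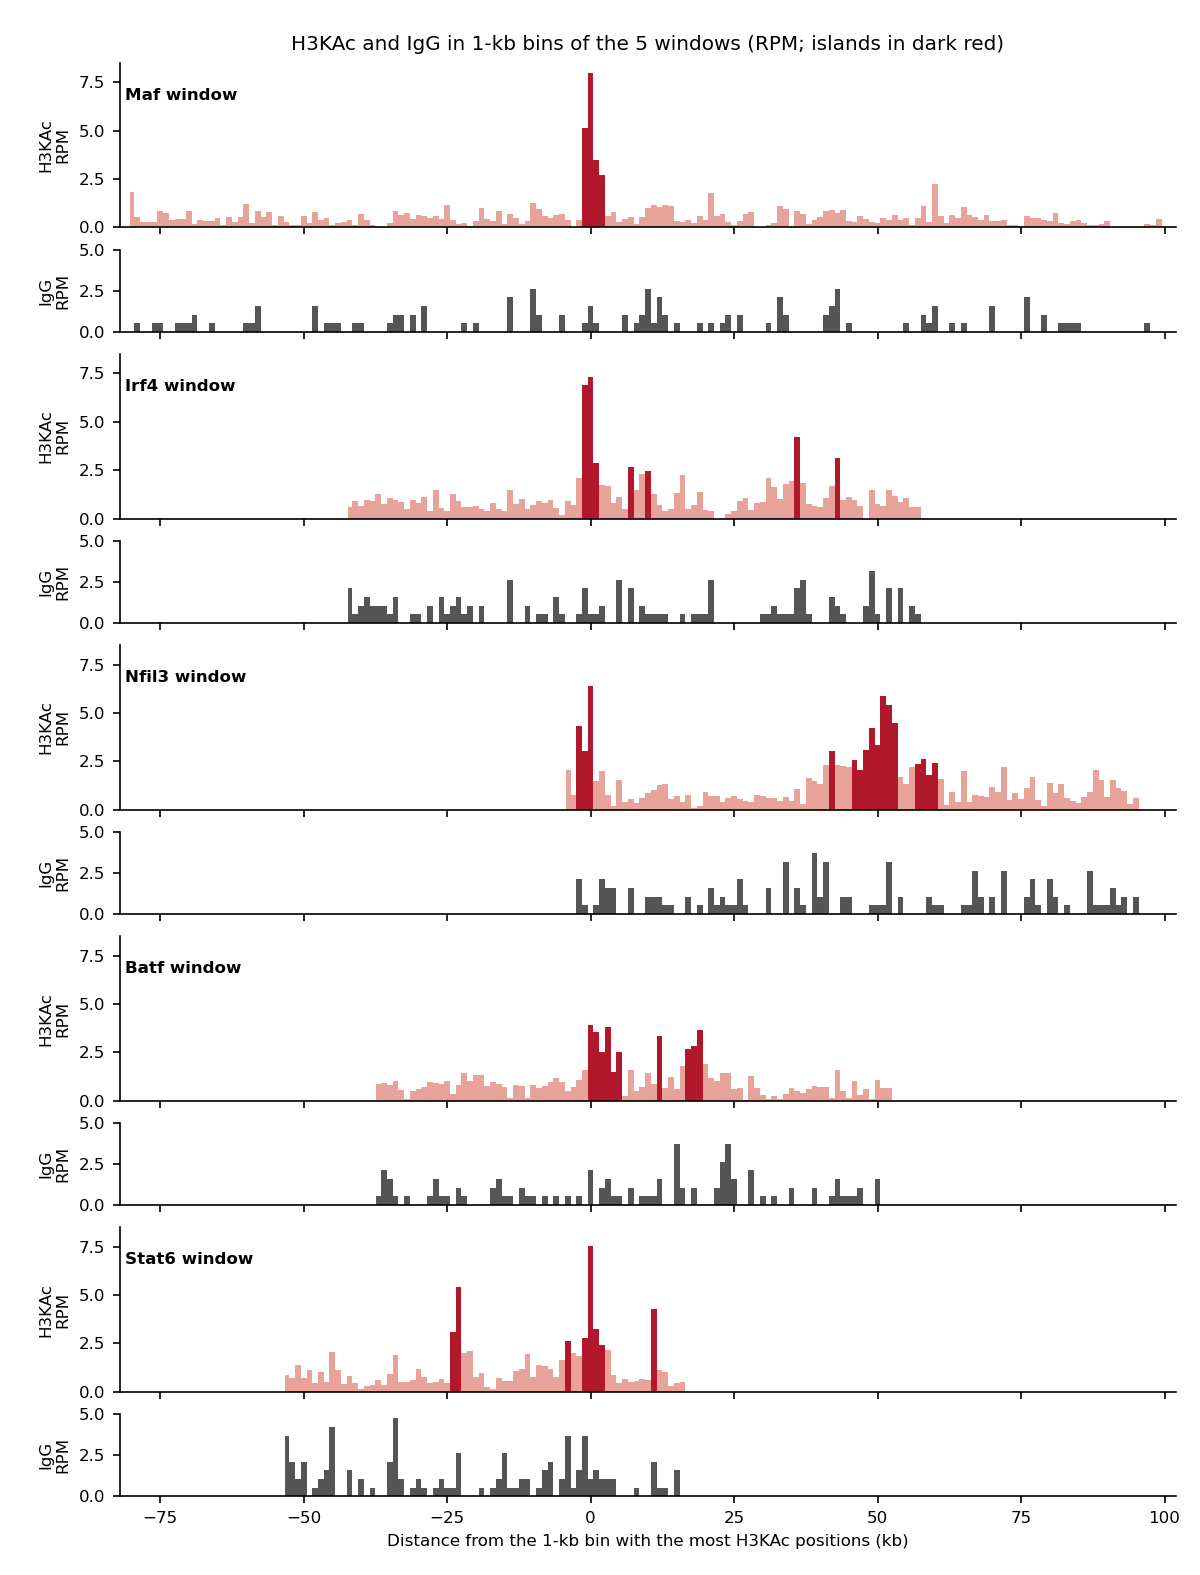
H3KAc (upper track of each pair) and IgG (lower track) in 1-kb bins of each window, in RPM, against the distance in kb from the bin with the most H3KAc positions. Bars in dark red are bins of islands. Maf has 1 island, Nfil3 a broad group of islands to the right of its highest bin, and IgG reaches 4.74 RPM in 1 Stat6 bin and less in the other bins.

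The Stat6 window, of the IL-4 signal transducer, held 4 islands on 8 kb, with 36.4% of its H3KAc positions and 23.8% of its IgG positions. Which of them belong to Stat6 and which to a neighbour such as Nab2, which overlaps it in the other build, was not determined. The island with the most positions lay from 127102001 to 127106000. Its 4 bins held 55, 149, 64 and 48 H3KAc positions and 7, 2, 3 and 2 IgG positions, in order along the chromosome. H3KAc reached 16.03 RPM (14.3 to 17.9) and IgG 7.38 RPM, a ratio of 2.17 (1.28 to 4.02). The highest bin, from 127103001 to 127104000, reached 7.56 RPM in H3KAc against 1.05 RPM in IgG, and 0.0557% of all covered bins had as many H3KAc positions. An island of 2 kb from 127079001 had 168 H3KAc and 6 IgG positions, and its ratio was 2.70 (1.21 to 7.45). Single-bin islands began at 127099001, with 52 and 7 positions and a ratio of 0.715 (0.324 to 1.87), and at 127114001, with 84 and 4 positions and a ratio of 2.02 (0.761 to 7.59). The bin from 127069001 to 127070000 held the most IgG in the 5 windows, 9 positions or 4.74 RPM, against 38 H3KAc positions or 1.93 RPM. Stat6 was the window in which outside-island chromatin did not stand apart from IgG, at 0.887 RPM per kb in H3KAc and 0.841 in IgG, a ratio of 1.05 (0.857 to 1.31).

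In the Irf4 window 5 islands covered 7 kb, and 4 of them were single bins. The main island, from 30841001 to 30844000, held 136, 144 and 57 H3KAc positions in its 3 bins and 4, 1 and 1 IgG positions. Its H3KAc level was 17.1 RPM (15.3 to 19.0) beside 3.16 RPM of IgG, and its ratio was 5.41 (2.46 to 14.8). At 5.70 RPM per kb it was the densest of the 17 islands. Its bin from 30842001 to 30843000 stood at 7.31 RPM in H3KAc and 0.527 RPM in IgG, and the ratio of 13.9 (2.45 to 551) rested on 1 IgG position. Further along, single-bin islands began at 30849001, 30852001, 30878001 and 30885001, with 53, 48, 83 and 62 H3KAc positions and 4, 1, 4 and 2 IgG positions. Their ratios lay between 1.28 and 4.62, and each of the 4 intervals included 1. The most IgG in a bin was 6 positions from 30891001, beside 29 H3KAc positions.

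Batf, the partner of Irf4 in DNA binding, had a lower summit than the 4 other windows. Its highest bin, from 87027001 to 87028000, held 77 H3KAc positions (3.91 RPM) and 4 IgG positions (2.11 RPM). No Batf bin reached 80 positions, which at least 1 bin of each other window did. The 3 Batf islands held 32.7% of the window's H3KAc positions, and 2 of them were several kb wide. Outside the islands the ratio to IgG was 1.36 (1.10 to 1.71). The island from 87027001 to 87033000 was 6 kb wide, with bins of 77, 70, 50, 75, 29 and 50 H3KAc positions and 4, 0, 2, 3, 1 and 1 IgG positions. H3KAc stood at 17.8 RPM (15.99 to 19.8), IgG at 5.80 RPM and the ratio at 3.07 (1.70 to 6.21). The 3-kb island from 87044001 to 87047000 held 181 H3KAc positions and 2 of IgG, 9.18 RPM (7.89 to 10.6) against 1.05 RPM, a ratio of 8.71 (2.38 to 72.5). Between them a single-bin island began at 87039001, with 66 and 3 positions. Its H3KAc reads were unevenly placed on the strands, with 48 plus-strand and 18 minus-strand positions, while the 6-kb island had 173 and 178. One Batf bin, from 87042001 to 87043000, was under-represented in H3KAc by the rule that the upper bound of the ratio be below 0.5. It had 12 H3KAc positions (0.609 RPM) and 7 IgG positions (3.69 RPM), a ratio of 0.165 (0.0599 to 0.495). The call depended on the setting. The upper bound was 1.11 with H3KAc thinned to the IgG number, 3.26 with plus-strand reads alone and 1.79 with IgG over 11 bins. It stayed below 0.5 with reads not moved (0.426), with all reads (0.159) and with IgG scaled by background bins (0.486). This bin was the 1 such bin among 491 tested in the windows (0.204%), where the rule called 0.629% of all bins tested. It ended 1 kb before the 3-kb island.

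The Maf window differed from the others in holding a single island. This island, from 118229001 to 118233000, had 101, 157, 69 and 53 H3KAc positions in its 4 bins, against 1, 3, 1 and 0 IgG positions. H3KAc was 19.3 RPM (17.4 to 21.3) and IgG 2.63 RPM, a ratio of 7.32 (3.11 to 22.7). Of the 14336 islands of the genome, 2.75% had at least as many H3KAc positions. Its bin from 118230001 to 118231000 was the highest of the 540, at 7.97 RPM (6.77 to 9.31) in H3KAc and 1.58 RPM in IgG. The island held 18.2% of the window's H3KAc positions on 2.22% of its length. The next highest bin lay 57 kb further on, from 118290001, with 44 H3KAc positions and 3 IgG positions, just under the limit. The first bin of the window, from 118150001, held 36 positions and no IgG, and the window's edge cuts whatever lies beyond it. The median bin of the whole window held 8 H3KAc positions, against 17.5 in the Irf4 window, 18 in Nfil3, 16 in Batf, 15 in Stat6 and 6 over all covered bins.

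By H3KAc alone, without regard to IgG, Nfil3 had the widest stretch of raised signal of the 5 loci. Adjacent bins at or above the 95th percentile of H3KAc (24 positions) ran without a gap for 24 kb, from 53062001 to 53086000. This stretch held 1250 H3KAc and 34 IgG positions, 63.4 RPM against 17.9 RPM, 3.54 times as much (2.52 to 5.13), and 46.2% of the window's H3KAc positions. Of 76154 such stretches in the genome, 21 were at least as long, this one among them. The longest in the other windows were 9 kb in Stat6, 7 kb in Batf, 6 kb in Irf4 and 4 kb in Maf. No IgG position was found in 11 of its 24 bins. The 4 bins at its left end held 0, 7, 2 and 6 IgG positions beside 32, 29, 26 and 45 H3KAc positions. In RPM, H3KAc was below IgG in the bins from 53063001 (1.47 against 3.69) and 53065001 (2.28 against 3.16). It was above IgG in those from 53062001 (1.62 against 0) and 53064001 (1.32 against 1.05).

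Inside this stretch lay 3 of the 4 islands of the Nfil3 window. The main one, 8 kb wide from 53070001 to 53078000, held 51, 40, 61, 83, 66, 116, 107 and 88 H3KAc positions in its bins. The IgG positions were 0, 0, 0, 1, 1, 1, 6 and 0. Its level was 31.0 RPM (28.6 to 33.6), IgG had 4.74 RPM, and the ratio was 6.55 (3.43 to 14.4). Of the 14336 islands of the genome, 134 had at least as many H3KAc positions, this one among them. A 4-kb island from 53081001 had 181 and 3 positions, a ratio of 5.81 (1.96 to 28.4), and a single bin from 53066001 had 60 positions and no IgG. The remaining island, 3 kb from 53022001 to 53025000, lay 41 kb before the stretch's first island. It held 85, 60 and 126 H3KAc positions and 4, 1 and 0 IgG positions, a ratio of 5.22 (2.21 to 16.2). Its last bin was the highest of the window, at 6.39 RPM in H3KAc. The island lies near the window's left edge, and whether it belongs to Nfil3 or to a neighbour was not determined.

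**Figure D3:**
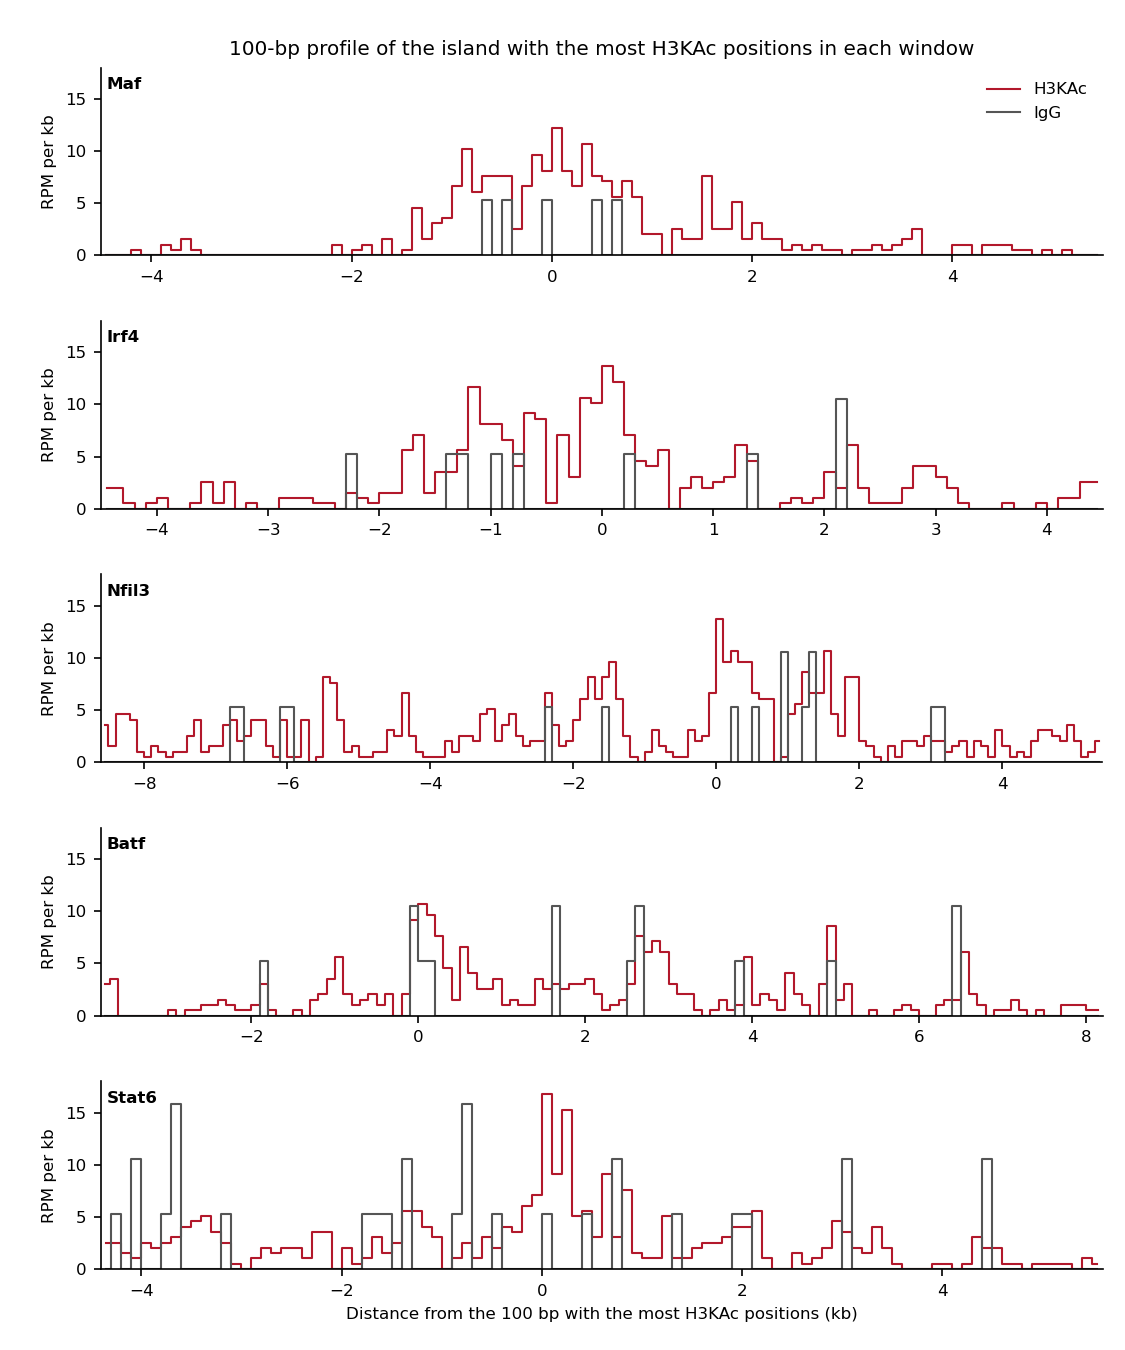
H3KAc (red) and IgG (grey) in 100-bp steps, in RPM per kb, over the island with the most H3KAc positions of each window and 3 kb on each side, against the distance in kb from the 100 bp with the most H3KAc positions. H3KAc tops out at 33 positions per 100 bp in Stat6 and at 21 in Batf, and each grey step of about 5 RPM per kb is 1 IgG position.

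At 100-bp resolution H3KAc counts varied along the main islands. In each main island, at least 500 bp from its ends, the 200 bp with the fewest H3KAc positions relative to the lower of the 500-bp stretches on its sides were located, a description chosen after the profiles had been seen. Dips nearer to the ends were not considered. Any profile has such a lowest stretch, and the depth of the dips was not set against counting error or against dips elsewhere. In Nfil3 it lay from 53076401 to 53076600, with 1 H3KAc position, between 75 positions in the 500 bp to the left and 63 to the right. In Irf4 it lay from 30843101 to 30843300, with 4 positions between 66 and 33. The Maf dip, from 118231501 to 118231700, held 4 positions between 54 and 31. Batf had 1 position between 27 and 19, from 87031201 to 87031400, and Stat6 had 4 positions between 32 and 28, from 127104701 to 127104900. The Nfil3 dip held 2 IgG positions and the Stat6 dip 1. No IgG position fell in the other 3 dips.

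Set against IgG in the same bin, few single bins passed the calling rule, which asks that at least 5 positions be present and that the lower bound of the ratio exceed 2. It called 3 of 491 tested bins (0.611%), against 0.0836% of all bins tested in the genome. They were the Irf4 bin from 30842001 given above and the Nfil3 bins from 53024001 and from 53077001. The Nfil3 bin from 53024001 had 126 H3KAc positions and no IgG, and the lower bound of its ratio was 3.24. The Nfil3 bin from 53077001 had 88 H3KAc positions and no IgG, with a lower bound of 2.25. With a lower bound above 1, 24 bins were called (4.89%, against 0.651% in the genome), of which 12 were in the Nfil3 window, 4 in Maf, 3 in Batf, 3 in Stat6 and 2 in Irf4. The highest Maf bin and the highest Stat6 bin missed the rule with lower bounds of 1.69 and 1.95, on 3 and 2 IgG positions.

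When IgG was instead taken over the 11 bins centred on each bin, 37 bins were called (7.54%, against 2.15% in the genome). They were 15 in Nfil3, 7 in Maf, 6 in Irf4, 5 in Batf and 4 in Stat6. The bin with the most H3KAc in each window then had a ratio of 23.8 (11.3 to 60.05) in Maf, 10.2 (5.96 to 18.6) in Irf4, 7.85 (4.71 to 13.9) in Nfil3, 6.27 (3.46 to 12.3) in Batf and 5.09 (3.44 to 7.76) in Stat6. IgG over 11 bins was 0.335 RPM per kb at the Maf bin and 1.49 RPM per kb at the highest Stat6 bin, and these low and high surroundings enter the ratios.

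Island by island, 10 of the 17 had a ratio whose lower bound was above 1 (58.8%, against 46.3% of the 14336 islands of the genome). A lower bound above 2 was found for 5 (29.4%, against 8.77% in the genome). These 5 were the main islands of Maf, Irf4 and Nfil3, the 3-kb island of Nfil3 and the 3-kb island of Batf. Of the 8 islands of a single bin, 1 had a lower bound above 1, where 30.7% of 9028 such islands of the genome did. Pooled by window, the islands had ratios of 7.32 (3.11 to 22.7) in Maf, 6.37 (3.96 to 10.97) in Nfil3, 3.60 (2.20 to 6.34) in Batf, 3.30 (2.04 to 5.71) in Irf4 and 1.93 (1.34 to 2.86) in Stat6. The Maf ratio was 3.80 times (1.45 to 12.6) and the Nfil3 ratio 3.30 times (1.76 to 6.42) that of Stat6, while the intervals of the other 8 pairs included 1. H3KAc in the islands was 3.93 RPM per kb in Stat6, 4.82 in Maf, 4.23 in Irf4, 3.56 in Nfil3 and 3.03 in Batf. IgG in the islands was 2.04 RPM per kb in Stat6, 0.659 in Maf, 1.28 in Irf4, 0.560 in Nfil3 and 0.843 in Batf. The Stat6 islands had the highest IgG of the 5 and the third highest H3KAc.

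**Figure D4:**
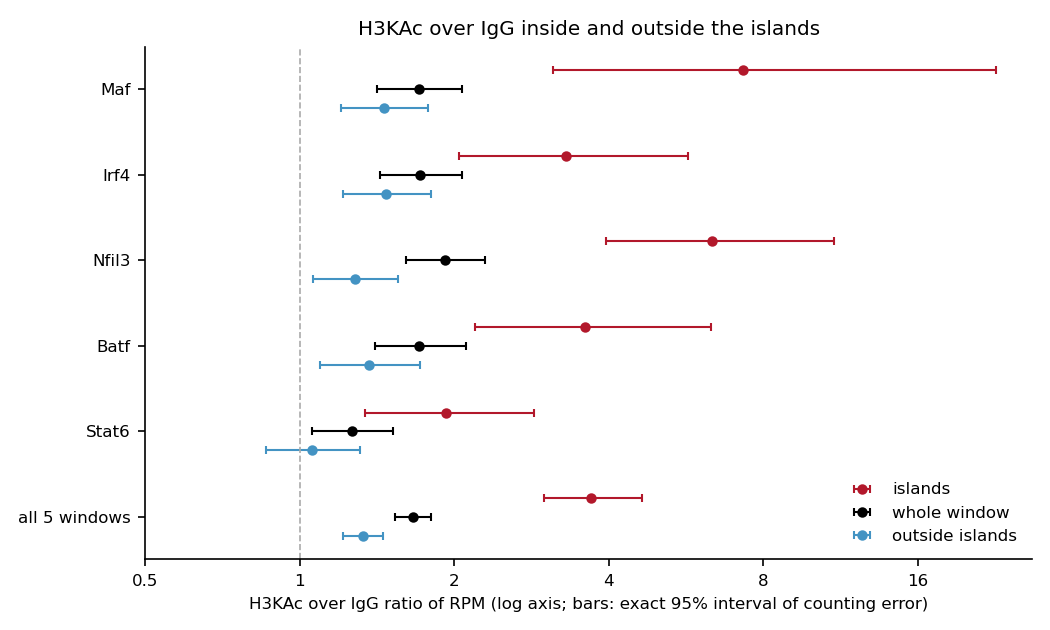
H3KAc over IgG ratio of RPM (x axis, log axis) for each window and for all 5 together, in islands (red), over the whole window (black) and outside islands (blue). Bars are exact 95% intervals of counting error. In every window the ratio in islands lies above that outside, from 1.93 against 1.05 in Stat6 to 7.32 against 1.46 in Maf. Islands were chosen on H3KAc, the numerator of the ratio, which in part sets this order.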

How the data were processed

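ChIP-seq reads of 1 H3KAc and 1 IgG library were used. The deposited rows give chromosome, 0-based start, end and strand of each read. Every row spanned 35 bases, with 0 in columns 4 and 5. The aligner named in the submitters' processing notes is Bowtie and the build is mm9. For its version, its filters and its handling of multiply aligned reads, nothing was given in the sources used here. The deposited files hold no normalized values. The libraries held 21845451 H3KAc and 7626703 IgG reads, with 1.11 and 4.02 reads per distinct position.

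Distinct positions were moved 100 bp and counted in 1-kb bins. Ratios have exact conditional binomial (Clopper-Pearson) 95% intervals, levels exact Poisson intervals and ratios of ratios exact conditional intervals. Windows of equal width were tiled over the autosomes and chromosome X, and those with at least 80% covered bins were kept. Named were, in each window, the 3 bins with the most H3KAc, the bin with the most IgG, enriched bins and the island with the most positions; other bins were named after their values were seen. The members, lists and rules were chosen with earlier results of these data known. The 24-kb stretch, the dips, the strand-crossed islands, the IgG limit on high bins and the ratios of ratios were added after seeing the data. PCR copies carried no molecular identifier. Intervals came from scipy 1.17.1, arrays from numpy 2.4.6, tables from pandas 2.3.3 and plots from matplotlib 3.10.9, under Python 3.11.15.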

Additional observations from a re-analysis of the deposited data

How the results depend on the processing

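The ratios of the 5 windows, alone and together, kept their direction and stayed within the intervals reported above with thinned H3KAc, with either strand alone, with every deposited read counted, without moving the reads, and with background bins setting the scale of IgG. The lowest and highest over these 6 settings were 1.19 and 1.36 in Stat6, 1.55 and 1.81 in Irf4, 1.49 and 2.00 in Batf, 1.63 and 1.76 in Maf and 1.88 and 2.05 in Nfil3. With plus-strand reads alone the interval of Stat6 reached below 1, at 1.19 (0.928 to 1.56). The ratio over islands became 5.64 over islands of the 0.1% highest bins and 2.25 with the 95th percentile. The 42 high bins became 26 with thinned H3KAc, 4 among the 0.1% highest and 121 with the 95th percentile. The 3 enriched bins became 60 with all reads, where copies of a position count as independent and may make intervals too narrow. They became 0 with either strand alone, 0 when the lower bound had to pass 4, and 1 with 500-bp bins. The count was 24 when the bound had to pass 1 (0.651% of all bins tested were called) and 37 with IgG over 11 bins (2.15%). For the other settings, and for the 26 high bins with thinned H3KAc, the share over the genome is not given. Those counts are therefore not read as a result about the windows. The count stayed at 3 with reads not moved, with 2 of the bins shared, and with thinned H3KAc, with 1 shared. The lower bound of the Irf4 bin from 30842001 was 1.42 with thinned H3KAc, and that of the Nfil3 bin from 53077001 was 1.18 with thinned H3KAc and 1.55 with reads not moved. The causes were not tested. The H3KAc level of Nfil3 over Maf, 2.33, became 1.98 below the 99th percentile, and that of Stat6 over Irf4 became 0.968. For the Stat6 bin from 127069001, whose interval lay below 1, IgG over 11 bins gave a lower bound of 1.14. IgG depth, a mean of 0.845 positions per covered bin, limits every ratio of a single bin. No paired analysis was possible because each antibody has 1 library.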

Other observations

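Repeat reads of a position, left out above, were fewer per 1000000 reads in H3KAc than in IgG in each of the 5 windows. Over the windows 1143 H3KAc and 1846 IgG reads were removed, 52.3 and 242 per 1000000 reads, a ratio of 0.216 (0.201 to 0.233). Over the whole genome that ratio was 0.130. The interval counts copies of the same position as independent and so may be too narrow. The most copies of a position in the windows were 6 in H3KAc and 20 in IgG, against 2161 and 750 in the genome. H3KAc positions of the islands were read 1.13 times on average, against 1.11 times over the genome. With every deposited read counted, the ratio over the islands fixed by distinct positions was 3.70 (3.31 to 4.13), the same to 3 digits as with distinct positions, with copies counted as independent.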
